A study of Mus musculus with 12 samples.

Results

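The 4 genes of the *Egr* family (*Egr1*, *Egr2*, *Egr3* and *Egr4*) and 6 other immediate early genes (*Fos*, *Fosb*, *Junb*, *Nr4a1*, *Arc* and *Npas4*) were followed in mouse retina. These 10 genes were named from a table of 24062 genes, and they were picked with the difference between genotypes at P21 (postnatal day 21) in view. That difference is therefore described below without a test. RNA came from Pias3+/+ and Pias3-/- mice on C57Bl6/J at P21 and at 18 months, with 3 libraries per genotype and age, 12 in all, each made from 2 retinas of mice of either sex. The Pias3-/- line carries a germline deletion of exons 2 to 5, which arose by recombination in oocytes when mice with the floxed allele were crossed to Rx-Cre mice, and it removes the exons in every tissue rather than in the retina alone. The Pias3+/+ groups carry the intact gene, and no group received a treatment.

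Immediate early genes are switched on within minutes of a stimulus from factors that are already present in the cell, without new protein synthesis. In neurons the stimulus is usually synaptic activity and calcium entry, which act through the factors SRF and CREB on the promoters. Most of the genes encode short-lived transcription factors, and in the retina they are known as markers of cells that respond to light. The light exposure of the animals and the hour of collection were not given in the sources used here.

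The promoter windows of the members were read to show which of these control elements they carry. A window is the 250 bases before the start site, from RefSeq on GRCm38.p6, and windows were given for 7 of the 10 members: *Egr2*, *Egr4*, *Fos*, *Fosb*, *Junb*, *Nr4a1* and *Npas4*. The 4 printed here belong to the 2 members that were lower at 18 months and have a window (*Fos* and *Nr4a1*), the member that was higher (*Fosb*) and a member without a detected age difference (*Npas4*). Capitals mark matches to TGACG, the half-site of the cAMP response element bound by CREB (CGTCA where it lies on the other strand), to GCGGGGGCG or GCGTGGGCG, the site bound by Egr proteins (CGCCCCCGC where the first lies on the other strand), and to the TATA box TATAAA.
Fos (chr12:85473640-85473889, plus strand): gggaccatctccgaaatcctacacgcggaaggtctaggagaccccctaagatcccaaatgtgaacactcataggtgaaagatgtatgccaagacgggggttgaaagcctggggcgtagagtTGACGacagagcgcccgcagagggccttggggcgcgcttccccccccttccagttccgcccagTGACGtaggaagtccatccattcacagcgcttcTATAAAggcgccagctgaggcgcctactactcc
Nr4a1 (chr15:101266596-101266845, plus strand): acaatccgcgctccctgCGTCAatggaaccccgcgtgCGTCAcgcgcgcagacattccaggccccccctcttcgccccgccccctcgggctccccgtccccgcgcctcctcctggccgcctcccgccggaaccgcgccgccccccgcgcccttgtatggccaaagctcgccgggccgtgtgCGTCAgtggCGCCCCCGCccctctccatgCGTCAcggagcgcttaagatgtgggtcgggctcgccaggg
Fosb (chr7:19310046-19310295, minus strand): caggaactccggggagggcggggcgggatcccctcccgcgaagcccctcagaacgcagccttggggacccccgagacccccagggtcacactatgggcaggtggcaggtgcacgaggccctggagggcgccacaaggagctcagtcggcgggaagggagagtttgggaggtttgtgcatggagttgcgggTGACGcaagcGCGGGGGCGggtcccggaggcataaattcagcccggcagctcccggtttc
Npas4 (chr19:4989972-4990221, minus strand): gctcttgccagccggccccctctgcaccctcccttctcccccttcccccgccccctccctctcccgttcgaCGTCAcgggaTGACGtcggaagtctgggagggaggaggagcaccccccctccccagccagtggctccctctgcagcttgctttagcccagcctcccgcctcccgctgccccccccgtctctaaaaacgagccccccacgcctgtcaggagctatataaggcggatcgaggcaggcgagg

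The half-site TGACG, searched on both strands, was in 7 of 7 windows of the members, whereas it was in 17.8% of all 32851 windows of the same length. *Nr4a1* held 4 copies, *Fos*, *Npas4*, *Egr2* and *Egr4* held 2 each, and *Fosb* and *Junb* held 1 each. The complete element TGACGTCA was in 0 of the 7 windows and in 1.55% of all windows. The CArG box, which SRF binds, was found in *Egr2* between 72 and 63 bases before the start, and in 1.47% of all windows. The Egr site was in *Fosb* and *Nr4a1* (3.06% of all windows), and TATAAA was in *Fos* (12.4% of all windows). The AP-1 site TGAGTCA or TGACTCA, which pairs of Fos and Jun proteins bind, was in none of the 7 and in 4.46% of all windows. The half-site and the complete element overlap by construction. A match describes letters in a window and shows neither binding nor use of the site, and the windows of members that fell, rose or did not pass the age test all held the half-site.

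All libraries were sequenced to between 11607155 and 25622505 counts. A level of 3 counts, taken as the lowest that could be shown, was worth between 0.121 and 0.261 CPM (counts scaled to the same TMM-normalized library total). *Pias3* itself, counted over the whole gene, was lower in Pias3-/- libraries at both ages. At P21 it was 127 ± 13.7 CPM (SD, n = 3) in Pias3+/+ and 78.0 ± 7.70 CPM in Pias3-/-, with a log2 fold change of -0.71 (SE 0.109), and at 18 months 101 ± 5.12 and 56.7 ± 4.09 CPM, with -0.84 (SE 0.0802). In both comparisons the groups did not overlap, and the FDR from edgeR's quasi-likelihood test was 0.0346 and 0.00458. By the level of *Xist*, the RNA of the inactive X chromosome, 6 libraries were female-like (at least 15790 counts) and 6 male-like (at most 18 counts). At P21 both kinds were present in each genotype, but at 18 months all Pias3+/+ libraries were high and all Pias3-/- libraries low in *Xist*, so that sex and genotype cannot be told apart there. Replicate 2 of Pias3-/- at 18 months held 7829 CPM of 5 lens genes, against 5.21 to 394 CPM in the other 11 libraries. Summed markers of rods at P21 lay between 35112 and 36464 CPM for Pias3-/- and between 47776 and 49998 CPM for Pias3+/+.

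Levels were compared between genes as FPKM, which divides by the counted length. *Fos* had the highest median over the 12 libraries (11.6 FPKM), followed by *Nr4a1* (10.1), which encodes an orphan nuclear receptor, and *Egr1* (8.24), a zinc finger factor induced by growth factors and by neuronal activity. The range of *Egr1* was the widest of these, from 3.15 to 36.0 FPKM, and enclosed those of *Fos* (5.13 to 20.1) and *Nr4a1* (7.20 to 18.8), so their order depended on the group. A second tier held *Junb*, the Fos partner (1.88 FPKM), *Npas4*, a neuron-specific factor induced by calcium (1.24), *Fosb*, a relative of *Fos* (0.825), and *Arc*, which acts in synaptic plasticity (0.483). The ranges of neighbours in this tier also overlapped. *Egr3* (0.176) and *Egr4* (0.0773) were near the limit of these libraries, and *Egr2* had between 0 and 2 counts in each library, at or under the floor. The filter on low values, 2 FPKM in any library, was passed by 4 of the 10 members, *Egr1*, *Fos*, *Junb* and *Nr4a1* and by 12448 genes in all. For the remaining members, fold changes come from a fit without that filter.

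**Figure D1:**
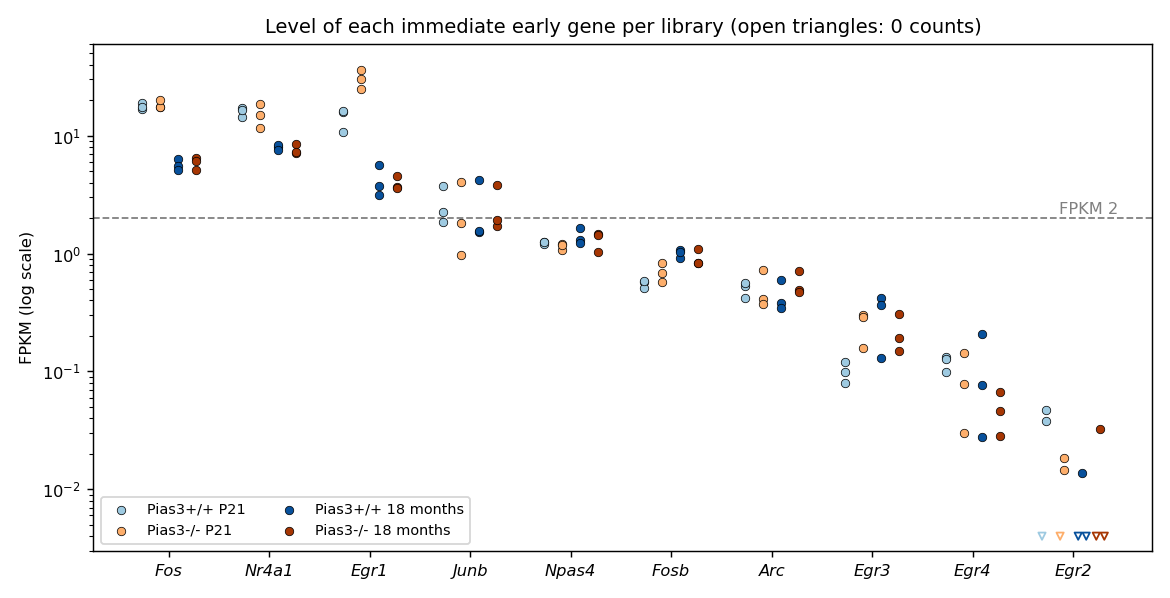
Level of each member in each library, in FPKM on a log scale, with members ordered by their median over 12 libraries and colours for genotype and age. Each filled point is 1 library, open triangles mark libraries with 0 counts, and the dashed line is the filter of 2 FPKM. *Egr1* spans 3.15 to 36.0 FPKM, whereas *Egr2* lies at the foot of the plot with at most 2 counts.

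At P21, *Egr1* (chr18:34861207-34864956 in mm10, plus strand, 2 exons) was measured at 49.0, 33.3 and 49.7 CPM in the Pias3+/+ libraries and at 76.6, 111 and 93.6 CPM in the Pias3-/- libraries. Each Pias3-/- library lay above each Pias3+/+ library. The means were 44.0 ± 9.28 (SD, n = 3) and 93.6 ± 17.0 CPM, a log2 fold change of 1.08 (SE 0.185), or 2.11-fold. Within the libraries high in *Xist* the values were 93.6 CPM in Pias3-/- against 49.0 and 49.7 CPM in Pias3+/+, and within those low in *Xist* 76.6 and 111 against 33.3 CPM. These splits divide the same values, with 1 library of a genotype in each, and are no separate test. Leaving out single libraries gave log2 fold changes from 0.91 to 1.21.

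*Egr3*, a paralogue of *Egr1* that is also induced by activity, was the other member with separated genotypes at P21. It had 7, 7 and 6 counts in the Pias3+/+ libraries and 22, 10 and 27 counts in the Pias3-/- libraries. The mean levels were 0.399 ± 0.0819 and 1.00 ± 0.317 CPM (SD, n = 3), a log2 fold change of 1.36 (SE 0.378). These counts are low, with at most 27 in a library, so the size of the difference is poorly fixed. Separation of the libraries in 2 of 10 members, both higher, stands beside 21.6% of all genes with at least 1 count (10.9% higher), and nothing is read from it because the members were chosen on this contrast. Calls at P21 (FDR up to 0.05 with a change of 1.5-fold or more) made up 0.818% of the genes tested, and 0.198% were called higher.

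The other members had overlapping genotypes at P21, by the same description. *Fos* was at 39.5, 35.1 and 36.8 CPM in Pias3+/+ and at 37.0, 36.9 and 42.0 CPM in Pias3-/- libraries, with a log2 fold change of 0.05 (SE 0.0953). *Nr4a1* was at 42.5, 35.7 and 40.5 against 37.2, 29.0 and 46.4 CPM, with -0.08 (SE 0.170). For both genes the libraries of the genotypes were interleaved. *Fosb* was at 2.19, 1.94 and 2.19 against 2.18, 3.11 and 2.60 CPM (log2 fold change 0.31, SE 0.202), and overlapped by the lowest Pias3-/- library alone. *Junb* (-0.17, SE 0.489), *Arc* (0.03, SE 0.297) and *Npas4* (-0.09, SE 0.154) overlapped as well. *Egr4* had between 1 and 7 counts and *Egr2* at most 2 in any P21 library, and no fold change is given for them.

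**Figure D2:**
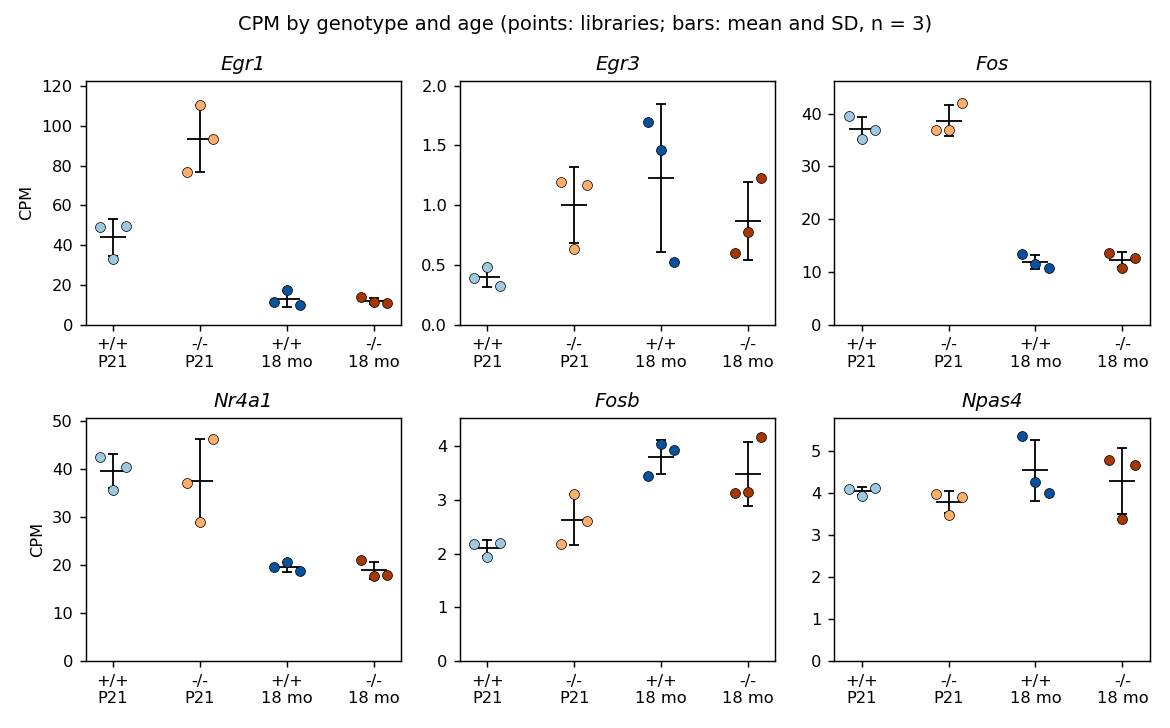
CPM of 6 members by genotype and age, with points for libraries and bars for the mean and SD (n = 3 per group), each panel on its own axis from 0. *Egr1* and *Egr3* are apart between genotypes at P21 and mixed at 18 months, *Fos* and *Nr4a1* drop with age in both genotypes, and *Fosb* rises.

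At 18 months the question was whether the members differed between genotypes in older retina, in libraries outside the P21 contrast. *Egr1* was at 11.5, 17.4 and 9.67 CPM in Pias3+/+ and at 13.9, 11.4 and 11.0 CPM in Pias3-/- libraries. The genotypes were interleaved, the log2 fold change was -0.10, and its 95% interval ran from -0.58 to 0.39 (FDR 0.889 from edgeR's quasi-likelihood test). *Egr3* counts were 42, 25 and 6 in Pias3+/+ and 10, 16 and 26 in Pias3-/- libraries. Here the lowest and the highest library both belonged to Pias3+/+, and the log2 fold change was -0.55 with a 95% interval from -1.46 to 0.36 (FDR 0.753).

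*Fos* was at 13.3, 11.5 and 10.8 CPM in Pias3+/+ and at 13.6, 10.8 and 12.7 CPM in Pias3-/- libraries at 18 months. Its log2 fold change of 0.05 had an interval from -0.26 to 0.36 (FDR 0.917). *Nr4a1* was at 19.7, 20.8 and 18.7 against 21.1, 17.8 and 18.1 CPM, with -0.06 and an interval from -0.30 to 0.18 (FDR 0.857). *Fosb* (-0.13, from -0.56 to 0.31) and *Npas4* (-0.11, from -0.56 to 0.35) had wider intervals, but for these 4 genes a difference of 1.5-fold still lay outside the interval in either direction. The intervals of *Arc* (0.37, from -0.29 to 1.03) and *Junb* (0.07, from -0.98 to 1.11) held changes of 2-fold. Among the 4 members past the filter 0 were called by edgeR's quasi-likelihood test, beside 0.257% of all genes tested. The count was also 0 at an unadjusted p under 0.05, 0 with DESeq2, 0 with edgeR's likelihood ratio test, and 0 of 10 without the filter, where 0.216% of genes were called. The groups overlapped for 10 of 10 members, beside 13.8% of all genes with at least 1 count that did not overlap. With so few members nothing is read from this count. Without replicate 2 of Pias3-/-, the library with lens RNA, the log2 fold change of *Egr1* was -0.07 and that of *Fos* 0.13. With *Xist* class as a covariate in a fit of all 12 libraries, *Egr1* was at 0.17 (FDR 0.731) and *Nr4a1* at 0.29 (FDR 0.259), so their direction changed while neither was called. *Junb* moved the furthest in that fit, from 0.07 to 1.23 (FDR 0.247), and was not called. Because *Xist* class and genotype coincided at 18 months, that fit took the effect of *Xist* class from the P21 libraries alone. Its values therefore cannot separate sex from genotype at 18 months. At P21 both libraries numbered 3, which had the highest *Junb* of their genotype (6.95 and 7.50 CPM), were high in *Xist*.

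The members were then compared between the ages, as 18 months against P21 with the mean of both genotypes on each side. This contrast gives both genotypes the same weight and does not use the difference that chose the genes. *Egr1*, *Fos* and *Nr4a1*, the 3 most abundant members, fell, whereas *Fosb* rose. Of the 4 members past the filter, 3 were called and all 3 were lower, beside 8.55% of all genes tested (4.35% higher and 4.20% lower). Without the filter 4 of 10 were called, 3 lower and 1 higher, beside 9.98% of genes. The median log2 fold change of the 4 members was -1.32, and that of all genes tested 0.00.

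The CPM of *Egr1* at 18 months ranged from 9.67 to 17.4 over 6 libraries and at P21 from 33.3 to 111 over 6 libraries. The ages did not overlap, and the log2 fold change was -2.36 (SE 0.157, 95% interval -2.70 to -2.02), or 5.14-fold lower (FDR 6.31e-07, edgeR's quasi-likelihood test). Within Pias3+/+ the log2 fold change was -1.77 (SE 0.221) and within Pias3-/- -2.96 (SE 0.225). These share their P21 libraries with the contrast that chose the gene, so their difference is not tested. In both genotypes every 18-month library was under every P21 library.

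*Fos*, which encodes a partner of the Jun proteins in the AP-1 factor, ranged from 35.1 to 42.0 CPM at P21 and from 10.8 to 13.6 CPM at 18 months. The log2 fold change was -1.64 (SE 0.0791, 95% interval -1.81 to -1.47), or 3.12-fold lower (FDR 4.37e-08). It was nearly the same in Pias3+/+ (-1.64, SE 0.112) and in Pias3-/- retina (-1.65, SE 0.111). *Nr4a1* ranged from 29.0 to 46.4 CPM at P21 and from 17.8 to 21.1 CPM at 18 months. Its log2 fold change was -0.996 (SE 0.105, 95% interval -1.22 to -0.77), or 1.99-fold lower (FDR 2.07e-05), with -1.0 (SE 0.148) in Pias3+/+ and -0.99 (SE 0.148) in Pias3-/-. For both genes the ages were apart in each genotype.

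*Fosb* went the other way from *Fos*. It was at 3.43, 4.03 and 3.92 CPM in Pias3+/+ and at 3.12, 3.15 and 4.15 CPM in Pias3-/- libraries at 18 months, each above every P21 library, although 1 Pias3-/- library at P21 came close at 3.11 CPM. The log2 fold change was 0.64 (SE 0.140, 95% interval 0.34 to 0.93), or 1.55-fold higher (FDR 0.00306 in the fit without the filter). The estimate lay near the 1.5-fold limit and fell under it with scaling by library size alone (0.55) and without replicate 1 of Pias3-/- at P21 (0.58) or replicate 3 of Pias3-/- at 18 months (0.57), with the direction kept. Within Pias3+/+ it was 0.85 (SE 0.201) and within Pias3-/- 0.43 (SE 0.194).

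The age estimate of *Egr3* lay on the other side of 0 from that of *Egr1*. Its log2 fold change was 0.75 (SE 0.302, 95% interval 0.11 to 1.40) with an FDR of 0.0784, and was not called. Without replicate 3 of Pias3+/+ at 18 months, the library with the fewest counts of the gene at that age, it was 0.91 with an FDR of 0.0195, and was called. In Pias3+/+ retina *Egr3* was at 0.399 CPM at P21 and at 1.23 CPM at 18 months (log2 fold change 1.70, SE 0.449), whereas in Pias3-/- retina it was at 1.00 and 0.867 CPM (-0.19, SE 0.399), a difference between genotypes that rests on the P21 libraries and is not tested. *Npas4* ranged from 3.49 to 4.12 CPM at P21 and from 3.39 to 5.37 CPM at 18 months (0.19, 95% interval -0.08 to 0.46, FDR 0.314). *Arc* was at 1.54 and 1.53 CPM on average (-0.04, 95% interval -0.50 to 0.43, FDR 0.996). *Junb* was at 4.52 CPM at both ages, but its interval ran from -0.86 to 0.78 (FDR 0.949). Together, 4 of 10 members had ages that did not overlap, 3 lower and 1 higher, beside 13.3% of all genes with at least 1 count (7.21% lower and 6.12% higher).

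**Figure D3:**
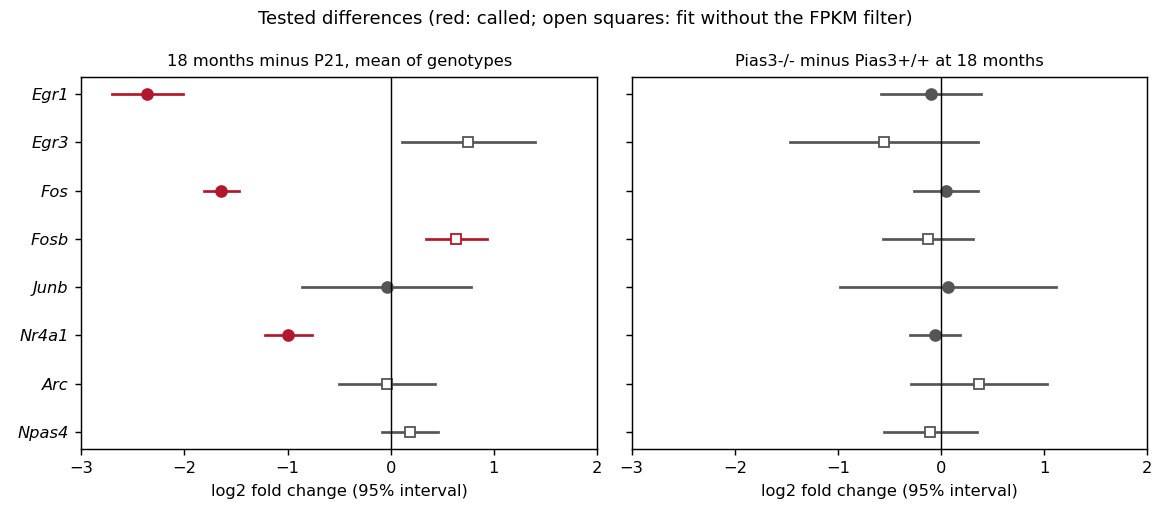
Log2 fold changes with 95% intervals for 8 members, for 18 months against P21 on the left and for genotype at 18 months on the right. Red marks called members and open squares the fit without the FPKM filter. *Egr1*, *Fos* and *Nr4a1* lie left of 0 and *Fosb* right of it with age, whereas all 8 intervals for genotype at 18 months cross 0.

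In bulk retina, fewer cells of a type and less RNA per cell cannot be told apart. Other marker lists moved with age beside the members, and their part in the result was not tested. All 5 ganglion cell markers had a lower estimate at 18 months at an unadjusted p under 0.05 (edgeR's quasi-likelihood test), a p that 46.8% of all genes had in either direction. Their median log2 fold change was -0.50, and their summed level was 636 to 851 against 912 to 1176 CPM. All 5 passed the FDR limit as well, but 0 of the 5 passed the 1.5-fold limit. *Rbpms* (-0.58, FDR 9.11e-06) came closest to it. Amacrine markers had a median of -0.26, with 0 of 5 called. Of the blood vessel genes 2 of the 4 tested were called lower, *Cldn5* (-1.36, FDR 0.00156) and *Pecam1* (-0.92, FDR 1.12e-05), whereas *Kdr* (0.36, FDR 0.0201) and *Flt1* (0.25, FDR 0.0311) had estimates above 0, under the fold limit. *Calb1*, the 1 horizontal cell gene tested (-0.82, FDR 1.87e-06), and *Opn1mw*, the M-opsin (-1.03, FDR 4.09e-07), were called lower as well. *Opn1mw* was the 1 call among 5 cone genes, of which *Arr3* (0.32, FDR 0.00104) and *Opn1sw* (0.24, FDR 0.00541) had estimates above 0, under the fold limit, and the median was 0.00. The 5 pigment epithelium genes summed to between 21.2 and 106 CPM at 18 months and between 25.9 and 184 CPM at P21, with *Ttr* (-1.14, FDR 0.0337) and *Rpe65* (-1.78, FDR 0.0199) called lower. At P21, libraries 1, 2 and 3 of Pias3+/+ held 174, 184 and 140 CPM of these genes, and those of Pias3-/- 25.9, 154 and 57.7 CPM. *Egr1* in the same order was at 49.0, 33.3 and 49.7 CPM and at 76.6, 111 and 93.6 CPM. *Fos* was at 39.5, 35.1 and 36.8 CPM and at 37.0, 36.9 and 42.0 CPM. Their relation was not tested. The 5 rod genes summed to between 54050 and 63931 CPM at 18 months, above all P21 libraries, with *Nr2e3* and *Gnat1* called higher. Among 8 glial stress genes 1 of the 5 tested, *Edn2*, was called higher, a gene that reached the FPKM filter only at 18 months, where it was high. Of 4 red blood cell genes 3 were at 0 in all libraries and their sum was at most 0.0544 CPM. Of 6 heat shock genes, which mark stress of cells or tissue, 4 were called higher at 18 months, beside 4.35% of all genes tested (*Hspa1b* 1.38, *Hspa1a* 1.02, *Hsph1* 0.69 and *Hspb1* 0.66 on the log2 scale). *Hsp90aa1* (0.29, FDR 0.0282) and *Dnajb1* (0.14, FDR 0.179) were not called. Among 16 clock genes, which are known to follow the time of day, 0 of the 15 tested were called with age by edgeR's quasi-likelihood test, beside 8.55% of all genes, with 4 at an unadjusted p under 0.05. These 4 passed the FDR limit but not the fold limit: *Nr1d1* (0.50, FDR 3.05e-04), *Bhlhe40* (0.31, FDR 7.85e-04), *Cry1* (-0.40, FDR 9.65e-04) and *Cry2* (-0.22, FDR 0.0133). At P21 6 of 15 clock genes had an unadjusted p under 0.05 (16.8% of all genes) and 1 was called (0.818% of all genes), *Cry1*, a repressor of the clock, at 66.7 ± 2.13 CPM in Pias3+/+ and 120 ± 20.0 CPM in Pias3-/- (log2 fold change 0.84, FDR 0.0336).

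Libraries of 1 group were not equally alike for all members. The SD within groups, on the log2 CPM scale, was 0.134 for *Fos*, 0.197 for *Nr4a1* and 0.313 for *Egr1*, whereas the median over all genes tested was 0.149. *Junb* had an SD of 0.761, at percentile 98.8 of the genes tested. Its CPM was 4.15, 3.39 and 6.95 in Pias3+/+ and 3.37, 1.78 and 7.50 in Pias3-/- at P21, and 2.83, 2.86 and 7.75 against 3.18, 3.54 and 6.98 at 18 months. The library numbered 3 was thus the highest in all 4 groups, at 6.95 to 7.75 CPM against 1.78 to 4.15 CPM in the rest. The highest place in all 4 groups was shared by 12.1% of the 12448 genes tested. In 385 of these the libraries numbered 3 also lay above all others, as they did for *Junb*. The same was seen for *Jun* (27.0 to 33.0 against 19.4 to 24.2 CPM), *Jund* (21.0 to 29.7 against 12.8 to 20.7 CPM) and *Ier2* (11.6 to 13.0 against 6.26 to 8.71 CPM). Number 3 was the highest in 3 of 4 groups for *Zfp36* and in 2 of 4 for *Atf3*. Among the other members it was the highest in 3 of 4 groups for *Arc* and for *Egr4*, which is near the floor, and in 2 of 4 for *Fosb*. The transcript of *Junb* is 62.6% G and C, at percentile 98.7. Over all genes, the deviation of a library from its group correlated with GC content (Spearman's rho 0.49, 0.65, 0.10 and 0.59 in the libraries numbered 3, and -0.46, -0.66, 0.25 and -0.56 in those numbered 2), across genes, which are not independent replicates. The part of GC content in the level of *Junb* was not tested.

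**Figure D4:**
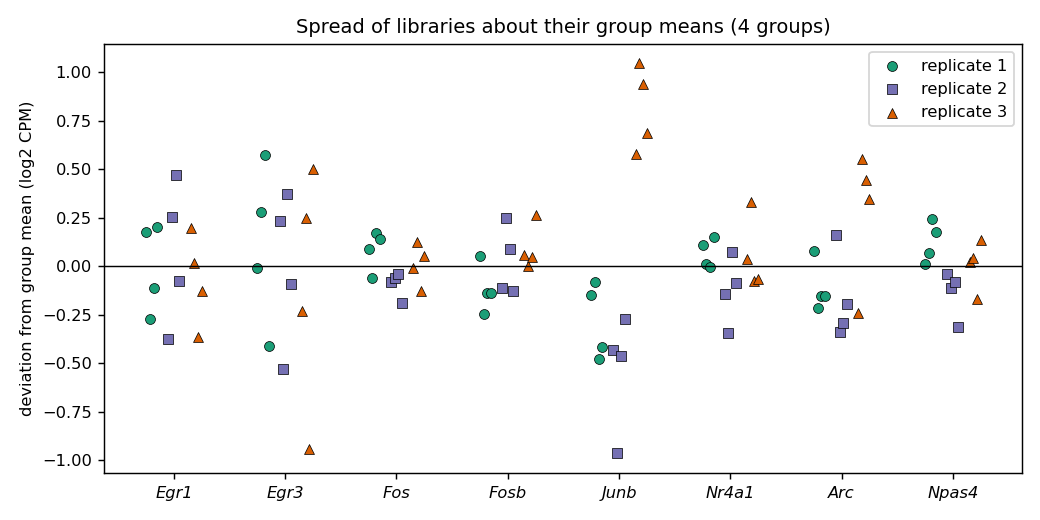
Deviation of each library from the mean of its group, in log2 CPM, for 8 members, with symbols for the replicate number. Libraries numbered 3 stand above 0 for *Junb* in all 4 groups, and no such order is seen for *Egr1*, *Fos* or *Nr4a1*, in each of which number 3 is the highest in 1 group of 4. For *Arc* number 3 is the highest in 3 groups of 4.

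Pairs of members varied in how far they moved together from library to library. Among the 8 members with over 10 counts in at least 1 library, 28 pairs of deviations from the group means were correlated over 12 libraries, as a description. The median Pearson's r was 0.17, and 19 of 28 were above 0. The highest was 0.88 for *Fos* and *Npas4*, followed by 0.77 for *Junb* and *Arc* and 0.58 for *Fos* and *Nr4a1*. *Egr1* was at 0.28 with *Fos*, at -0.02 with *Egr3* and at -0.50 with *Arc*. Over the group means as well, *Egr1* had an r of 0.94 with *Fos*, 0.87 with *Nr4a1* and -0.66 with *Fosb*, values that mostly carry the difference between ages. All pairs come from the same libraries and so share their depth.

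A wider list of 40 genes known to respond early to stimuli was measured next, with the members left out. At P21, 29 were tested and 0 were called by edgeR's quasi-likelihood test, beside 0.818% of all genes tested. An unadjusted p under 0.05 was found for 10, beside 16.8% of all genes. *Sgk1*, a kinase induced by glucocorticoids, had an FDR of 0.0401 but a log2 fold change of 0.46, under the limit (149 ± 11.2 CPM in Pias3-/- and 108 ± 1.42 CPM in Pias3+/+). *Ctgf*, a secreted matrix protein, was at 36.9 ± 4.59 against 23.7 ± 1.44 CPM, with a log2 fold change of 0.63 and an FDR of 0.0524, and was called by DESeq2 and by the likelihood ratio test. At 18 months 28 were tested and 0 were called between genotypes, beside 0.257% of all genes, with 1 at an unadjusted p under 0.05 (9.27% of all genes) and 0 by DESeq2 or the likelihood ratio test.

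With age, 6 of 29 genes of the wider list were called, beside 8.55% of all genes tested (4.35% higher and 4.20% lower). *Sgk1* rose from between 107 and 161 CPM at P21 to between 526 and 599 CPM at 18 months, without overlap (log2 fold change 2.12, SE 0.0546, FDR 3.55e-10). *Atf3*, a stress-induced factor, rose from between 3.94 and 7.30 CPM to between 11.4 and 17.0 CPM (1.34, SE 0.125, FDR 8.52e-06). The other 4 fell. They were *Dusp5*, a phosphatase that acts on ERK (-0.78, FDR 3.86e-04), *Cyr61*, a matrix protein that passed the filter only through the P21 libraries, where it was high (-0.70, FDR 0.00208), *Plk2*, an activity-induced kinase (-0.68, FDR 2.24e-05), and *Ier5* (-0.61, FDR 5.21e-04). In all 17 of the 29 passed the FDR limit. As many had an unadjusted p under 0.05 by edgeR's quasi-likelihood test, as had 46.8% of all genes tested. The count is not read as a result about the list. Of the 11 under the fold limit, 9 were lower and 2 higher. Among them were the phosphatases *Dusp6* (-0.56, FDR 9.91e-05), *Dusp1* (-0.46, FDR 2.82e-04) and *Dusp4* (0.40, FDR 0.00459), as well as *Trib1* (-0.54, FDR 1.59e-05), *Btg2* (-0.38, FDR 1.47e-04) and *Gadd45b* (0.47, FDR 0.0344). *Jun*, *Jund*, *Ier2*, *Srf* and *Per1* had an FDR above 0.05. The median of the 29 was -0.18, against -1.32 for the 4 members past the filter, of which 3 were called. Members under the filter do not enter that median. Most genes of the wider list were at smaller differences than *Egr1*, *Fos* and *Nr4a1*, with *Sgk1* and *Atf3* on the other side of 0.

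**Figure D5:**
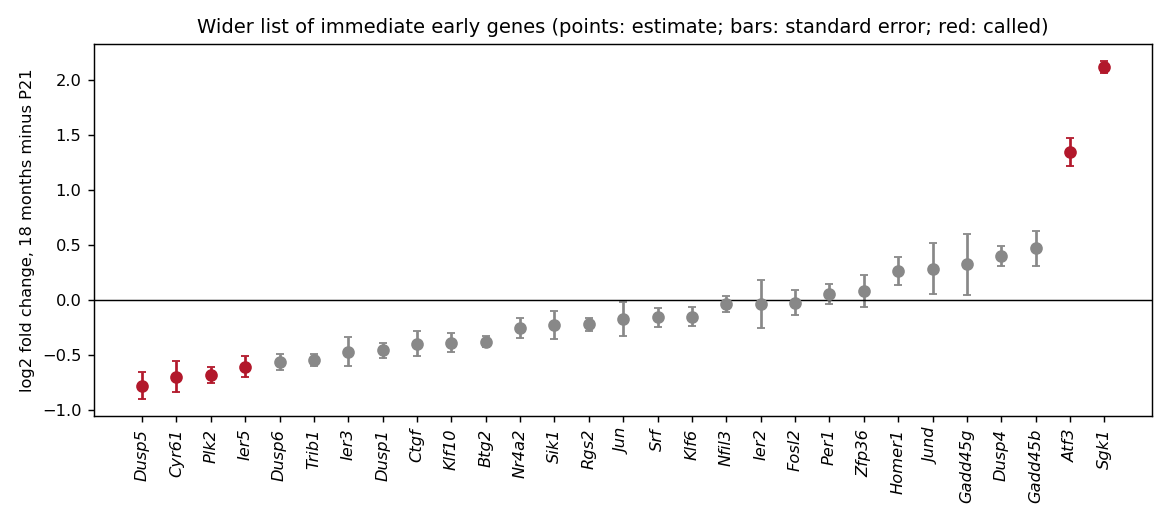
Log2 fold change of 18 months against P21 for the 29 tested genes of the wider list, in order of the estimate, with bars for the standard error and red for called genes. 4 genes at the left end and *Atf3* and *Sgk1* at the right end are called, and the median is -0.18.

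Regulators of these genes and partners of Egr proteins formed a list of 22. Between genotypes 0 were called by edgeR's quasi-likelihood test at P21 (21 tested, 4 at an unadjusted p under 0.05), where 0.818% of all genes were called and 16.8% had such a p. At 18 months 0 of 22 were called (3 at an unadjusted p under 0.05), where the shares of all genes were 0.257% and 9.27%. With age 3 of 22 were called, beside 8.55% of all genes tested, and with so few genes the count is not read as a result about the list. *Nab2*, a corepressor that binds Egr1 and is itself an Egr target, rose from 10.9 ± 2.28 to 19.1 ± 2.91 CPM (SD, n = 6 per age; log2 fold change 0.81, FDR 3.80e-04), opposite to *Egr1*. *Nab1*, its paralogue, was at 26.5 and 37.0 CPM (0.48, FDR 3.88e-04), under the fold limit. *Mef2c*, an activity-dependent factor, rose from 56.3 ± 15.1 to 173 ± 18.2 CPM (1.65, FDR 1.79e-06), and *Camk4*, a calcium-dependent kinase that acts on CREB, fell from 55.5 ± 10.5 to 35.1 ± 4.48 CPM (-0.65, FDR 0.00104), with ages that overlapped. *Srf* (-0.16, FDR 0.165) and *Creb1* (0.31, FDR 0.0594) were not called.

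The genes whose pattern over the 12 libraries was most like that of *Egr1*, by Pearson's r of log2 CPM among 12444 genes, were *Sparcl1*, *Znf512b*, *Zfp112*, *Hmgb3* and *Pnpla7*, all with an r of 0.98. *Hmgb3*, a chromatin protein, was at 79.7 CPM in Pias3-/- and 47.7 CPM in Pias3+/+ libraries at P21, and at 17.4 and 17.0 CPM at 18 months. *Sparcl1*, a secreted matrix protein, was at 449 and 398 CPM at P21 and at 296 and 304 CPM at 18 months. The genes with the most similar deviations from the group means were others: *Chst15* (0.94), *Hs6st3* (0.91), *Col23a1*, *Adat1* and *Clcn6* (each 0.89). The 2 sets of 5 had no gene in common, and none of the members was eligible for either set.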

How the data were processed

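Retinal RNA was sequenced as stranded paired-end reads of 100 bases from 12 samples of 2 retinas. The authors aligned reads to mm10 with TopHat2 2.1.1 and counted them per gene with featureCounts. The deposited values are these counts, without normalization. The gene annotation and strand setting of the counting were not given in the sources used here. RNA input is 100 ng in the study's methods and 1 µg in the labels. The authors' tables of their own comparisons (fold changes, p-values and group mean FPKM) were not used. The methods call the replicates independent and biological.

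Counts were fitted in R 4.3.3 with edgeR 4.0.16 (glmQLFit and glmQLFTest, TMM, Benjamini-Hochberg adjustment over all genes tested), each age on its 6 samples and the age contrast on all 12. Genes that reached 2 FPKM in any sample were tested, and called at an FDR up to 0.05 with a change of 1.5-fold or more. CPM, FPKM and log2 CPM (prior count 2) were computed here over 12 libraries. The members and lists were chosen with earlier results of these data known. The named genes are *Pias3*, the 10 members, those called in a list (at most the 5 largest per direction in the wider list), and the 5 most like *Egr1* by each measure. List genes named without a call were picked with their values in view. The scripts were tested on simulated data. Alternatives were DESeq2 1.42.0, other scalings, filters and tests, a replicate block, and each sample left out. The sex covariate and the GC correction (lowess, span 0.3) were added after seeing the data. Promoter windows and positions come from RefSeq on GRCm38.p6 and GENCODE M21.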

Additional observations from a re-analysis of the deposited data

How the results depend on the processing

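The 3 age calls of *Egr1*, *Fos* and *Nr4a1* were made under each of the alternatives run, with log2 fold changes from -2.50 to -2.29, -1.71 to -1.60 and -1.07 to -0.91. With an FDR limit alone, 17 genes of the wider list were called with age. Of all genes tested, 46.8% had an unadjusted p under 0.05 by edgeR's quasi-likelihood test. With 1 library left out, and both limits kept, 5 to 7 were called. At P21 the wider list had 1 call under library size alone, filterByExpr, no FPKM filter, DESeq2, the likelihood ratio test, the GC correction, all 12 libraries in 1 fit and an FDR limit alone, and 0 to 1 with a library left out (1 without replicate 3 of Pias3-/-). Among tested differences, signs changed only where none was called. At P21, where the members were not tested, *Egr1* (0.91 to 1.21) and *Egr3* (1.22 to 1.58) kept their sign, whereas *Fos* (-0.011 to 0.14), *Junb* (-0.90 to 0.18), *Nr4a1* (-0.26 to 0.077) and *Arc* (-0.35 to 0.21) crossed 0. The changes of sign at 18 months were *Egr1* (0.17 with the sex covariate, -0.25 to 0.18 with a library left out), *Nr4a1* (0.29 with the sex covariate), *Fos* (-0.017 to 0.15 with a library left out), *Npas4* (-0.18 to 0.045) and *Junb* (-0.046 with the GC correction, -0.36 to 0.69 with a library left out, and 1.23 with the sex covariate). With age they were *Junb* (0.0027 with DESeq2, 0.081 with the sex covariate, -0.34 to 0.32 with a library left out) and *Arc* (-0.15 to 0.16). The causes were not tested, and the sex covariate took its effect from the P21 libraries alone.

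Same-numbered libraries of the genotypes did not deviate together in every pair (r of -0.23, 0.39 and 0.56 at P21, and 0.37, -0.09 and 0.22 at 18 months), so the numbers were not taken as pairs, although 10 of 12 libraries matched best with their own number in another group. With the replicate block, 3 members were called with age, 0 at 18 months, and 1 gene of the wider list at P21.

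At depths of 11607155 to 25622505 counts, *Egr2* was at or under the floor and *Egr4* near it, and for *Egr3*, *Arc* and *Junb* the intervals between genotypes at 18 months were wider than 1.5-fold.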
